A study of Mus musculus with 4 samples.

Results

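The helper costimulation and regulatory T genes followed here are 9: Foxp3, Ikzf2, Il2ra, Icos, Tnfrsf4, Tnfrsf18, Tnfrsf9, Cd40lg and Izumo1r. They were chosen by name in a single-cell series, and all 9 were found among the 16500 gene symbols listed in any of the 4 libraries. Each library held droplet-captured leukocytes, sorted as CD45.2+, from the intraepithelial layer of uninfected C57BL/6 mice, with 1 library each for stomach, small intestine, cecum and colon. No genetic change or treatment was labelled in any group, and neither the number of animals per library nor their age is given in the sources used here. The extraction text names colons in every record, and the tissue labels were used.

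T cells carry a set of surface proteins and transcription factors that set how they respond to antigen. Foxp3 is the lineage factor of regulatory T cells, Ikzf2 (Helios) is a zinc-finger factor of many regulatory T cells and of other T cells selected by strong self-antigen signals, and Il2ra is the alpha chain that gives the interleukin receptor its high affinity. Icos is a CD28-family costimulatory receptor, Tnfrsf4 (OX40), Tnfrsf18 (GITR) and Tnfrsf9 (CD137) are TNF-family costimulatory receptors induced or raised by activation, Cd40lg is the helper ligand that engages Cd40 on B cells and myeloid cells, and Izumo1r (folate receptor-like, also called Juno) is a surface protein of egg cells and, in mice, of regulatory and some antigen-experienced T cells. The gut epithelium is rich in T cells with the gamma-delta receptor or with Cd8a and no Cd8b1, and poor in Cd4 cells.

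The members were measured in Cd3-positive cells, defined as barcodes with at least 200 listed genes and at least 1 UMI (a counted transcript molecule) of Cd3d, Cd3e or Cd3g and not holding both 3 or more UMIs of another lineage's markers and more of them than of Cd3. There were 294 such cells in stomach, 2479 in the small intestine, 3474 in the cecum and 3391 in the colon, 9638 of 14373 kept barcodes in all. Between 98.3% and 99.8% of them also carried a UMI of a T cell receptor constant gene. The libraries held between 8568438 and 12988676 UMIs, and the Cd3-positive cells had median depths of 2550.5 UMIs in stomach, 2331 in the small intestine, 1756.5 in the cecum and 3007 in the colon. At least 2 UMIs of the natural killer markers Ncr1, Klrb1c and Eomes were carried by 21.8% of the Cd3-positive cells in stomach, 3.43% in the small intestine, 3.68% in the cecum and 7.58% in the colon. Between 1 and 6 barcode sequences were shared by a pair of libraries, 23 over all 6 pairs. With 1 library per tissue, the intervals given for tissues cover counting error only, and tissue, animal and library cannot be told apart.

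Each Cd3-positive cell was given a status from 3 genes: Cd4 status (Cd4 without Cd8a or Trdc), Trdc status (Trdc, the gamma-delta receptor constant gene, without Cd4), none (no UMI of the 3) and Cd8a status (Cd8a without Cd4 or Trdc). Cd4 status was rare, with 30 cells in stomach, 68 in the small intestine, 47 in the cecum and 54 in the colon, or 10.2%, 2.74%, 1.35% and 1.59% of the Cd3-positive cells. Trdc status held 52, 1674, 520 and 919 cells in the same order of tissues, none held 161, 167, 1776 and 908, and Cd8a status held 50, 545, 1125 and 1497. None is not a cell type, since a cell can hold a transcript that was not captured. Any Cd4 UMI was found in 3.75% of Cd3-positive cells and 8.74% of B cells of the small intestine, at median depths of 2331 and 11072 UMIs, and after thinning every cell to 1000 UMIs the shares were 2.18% and 1.94%. In that tissue the share of cells with Cd4 was thus not above that of the B cells, most of which carried plasma cell markers. Its Cd4-status cells had a Cd40lg UMI in 36.8% and an Icos UMI in 58.8%, against 2.58% and 7.62% of all its Cd3-positive cells. In stomach any Cd4 UMI was found in 10.5% of Cd3-positive cells and 2.30% of B cells, in the cecum in 1.53% and 0.341%, and in the colon in 1.98% and 0% (0 of 192, which allows a share of up to 1.56%). Thinning left out 0, 0, 60 and 9 Cd3-positive cells and 1, 0, 89 and 0 B cells of stomach, small intestine, cecum and colon.

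In the mouse build GRCm38 several members are neighbours or share a chromosome. Tnfrsf4 (chr4:156013843-156016612) and Tnfrsf18 (chr4:156026164-156028895) are neighbours on the plus strand, 9551 bases apart, and Tnfrsf9 (chr4:150914562-150946102) is on the same chromosome. Foxp3 (chrX:7573644-7595245) and Cd40lg (chrX:57212143-57224042) are X-linked, Ikzf2 (chr1:69531214-69687245, minus strand) and Icos (chr1:60977927-61000320) share a chromosome, and Il2ra is at chr2:11642807-11693193 and Izumo1r at chr9:14885814-14903949 on the minus strand. The RefSeq promoter table of GRCm38.p6 held 8 promoters of 6 members. The 250 bases before the start are shown for 2 members whose window lies wholly upstream of the annotated gene: Tnfrsf4, higher in Cd4 than in Cd8a status, and Il2ra, higher in stomach than in the colon. Sequence is in lower case, with capitals marking a match to a motif of NF-kappa-B, a factor that many of these receptors signal through.
Tnfrsf4, chr4:156013445-156013694, plus strand: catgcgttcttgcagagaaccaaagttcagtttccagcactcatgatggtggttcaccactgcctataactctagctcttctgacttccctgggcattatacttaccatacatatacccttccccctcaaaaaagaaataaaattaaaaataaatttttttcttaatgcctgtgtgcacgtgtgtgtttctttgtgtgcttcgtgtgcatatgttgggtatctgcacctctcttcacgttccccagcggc
Il2ra, chr2:11642542-11642791, plus strand: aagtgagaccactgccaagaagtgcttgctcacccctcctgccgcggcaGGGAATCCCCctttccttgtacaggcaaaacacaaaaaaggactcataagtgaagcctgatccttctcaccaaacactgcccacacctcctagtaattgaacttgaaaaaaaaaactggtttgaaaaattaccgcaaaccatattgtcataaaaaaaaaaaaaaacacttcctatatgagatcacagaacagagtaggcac
Searched on both strands of these windows were 3 motifs, the STAT motif TTCNNNGAA, the AP-1 motif TGANTCA and the NF-kappa-B motif. They were present in 7.02%, 6.75% and 5.0% of all 32851 promoters in the table. The STAT motif was matched in a promoter of Foxp3, Tnfrsf18 and Tnfrsf9, the NF-kappa-B motif in Il2ra and Tnfrsf9, and the AP-1 motif in Tnfrsf9. The windows of Tnfrsf4 and Izumo1r held no match. These are letter matches only.

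Most members were above the B cell level in Cd3-positive cells, and Foxp3 was close to the limit of detection. Levels are given as CPM, the UMIs of a gene per 1000000 UMIs summed over the cells, and B cells of the same library were taken as the background. A member was called above background when the 95% interval of the ratio of Cd3-positive over B cells lay above 1. This held for 8 of 9 members in stomach, 9 in the small intestine, 7 in the cecum and 5 in the colon. Of all genes with a UMI in either class, 12.6%, 65.3%, 24.5% and 16.9% met the same rule in stomach, small intestine, cecum and colon, so in the small intestine most genes did. Foxp3 missed it in stomach, cecum and colon, Il2ra in the cecum and colon, and Tnfrsf4 and Cd40lg in the colon. In colon Tnfrsf4 and Cd40lg were at 7.93 and 8.19 CPM in Cd3-positive cells. The 192 B cells there held 0 Tnfrsf4 UMIs, which allows up to 6.66 CPM, and 1 Cd40lg UMI.

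The B cell reference has limits of its own. Of the 206 B cells of the small intestine, 182 carried at least 3 UMIs of plasma cell markers, and their median depth was 12925 UMIs. Without plasma-marker cells 5 members were above background in stomach, 3 in the small intestine, 6 in the cecum and 5 in the colon, where 6.14%, 2.6%, 19.5% and 12.6% of all genes were. B cells that also held a Cd3 UMI carried much of the Ikzf2 signal of B cells in the intestinal libraries, and less of it in stomach. Ikzf2 in B cells was 21.5, 7.63, 33.5 and 62.2 CPM in stomach, small intestine, cecum and colon. After leaving out B cells with a Cd3 UMI it was 16.0 CPM in stomach, 1.5 in the small intestine, 4.18 in the cecum and 5.06 in the colon.

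**Figure D1:**
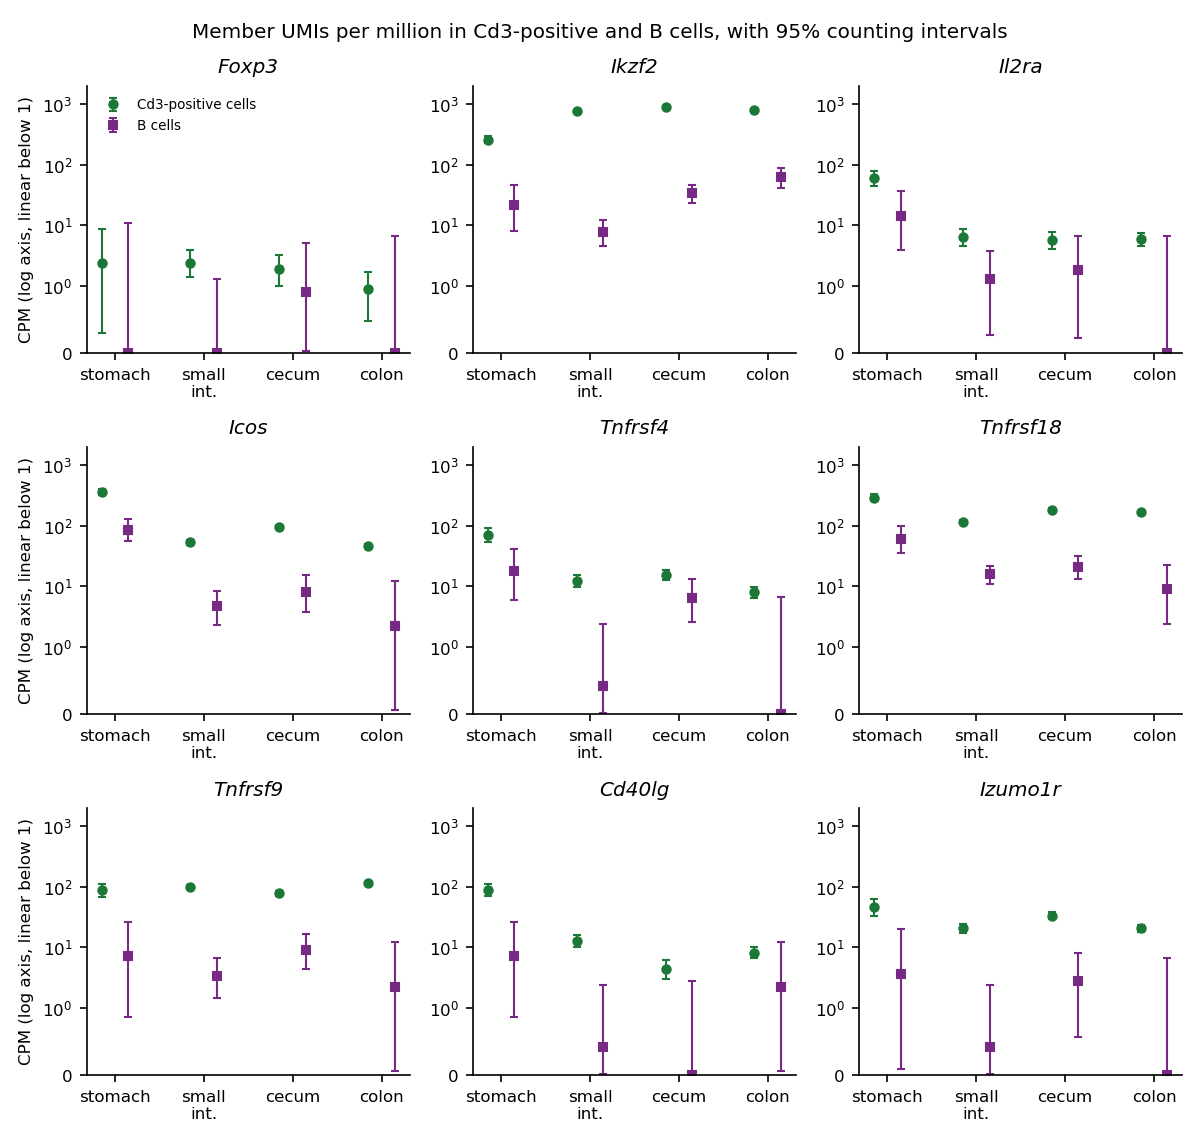
Level of each member in Cd3-positive cells (green circles) and B cells (purple squares) of the same library, in CPM on a log axis that is linear below 1. Bars are exact Poisson 95% intervals with 1 library per tissue. Ikzf2, Tnfrsf18 and Tnfrsf9 lie above the B cells in every library, and Foxp3 stays under 3 CPM.

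Among the transcription factors, Foxp3 had 2 UMIs in stomach, 16 in the small intestine, 13 in the cecum and 11 in the colon, or 2.42, 2.41, 1.90 and 0.948 CPM. In B cells it had 1 UMI in all, in the cecum. Other leukocytes of the same libraries held Foxp3 UMIs at similar levels: 7 UMIs or 1.46 CPM in 2033 cells of the stomach called by mast cell markers and 5 UMIs or 5.58 CPM in 207 cells of the small intestine called by dendritic markers. Over all Cd3-positive cells the Foxp3 level was therefore not separated from that of these 2 classes, and no ratio to them was made. Against B cells it was above background only in the small intestine, with 16 and 0 UMIs, where 65.3% of all genes were.

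Ikzf2 was at 260 CPM in stomach, 766 in the small intestine, 899 in the cecum and 796 in the colon. Stomach was lowest and cecum highest, and the intervals of the small intestine and colon overlapped. At least 1 Ikzf2 UMI was found in 34.7% of Cd3-positive cells of the stomach, 73.2% of small intestine, 71.6% of cecum and 80.4% of colon, against 4.60%, 3.88%, 3.07% and 4.17% of B cells, whose median depths were 2346, 11072, 1249 and 1965.5 UMIs. After thinning to 1000 UMIs per cell the shares were 19.4%, 46.4%, 54.9% and 50.4% of Cd3-positive cells.

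Of the receptors, Il2ra was at 59.3 CPM in stomach, 6.32 in the small intestine, 5.69 in the cecum and 5.95 in the colon. Its 3 intestinal values overlapped in their intervals, and the stomach value did not. Icos was at 356 CPM in stomach, 53.1 in the small intestine, 94.3 in the cecum and 46.4 in the colon. The order was stomach, then cecum, with small intestine and colon overlapping in their intervals. In stomach B cells Icos reached 86.0 CPM, of which 15 of 24 UMIs came from 1 cell.

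The TNF-family receptors did not follow a common order. Tnfrsf4 was at 70.1 CPM in stomach, 12.3 in the small intestine, 15.6 in the cecum and 7.93 in the colon, highest in stomach. Tnfrsf18 was at 293, 115, 185 and 167 CPM in the same tissues, with a narrower spread. Tnfrsf9 was at 87.1, 101, 77.7 and 114 CPM, and here the stomach lay inside the range of the other libraries. With cells carrying natural killer or group 2 innate lymphoid marker UMIs left out, the stomach was lowest, at 57.8 CPM. The small intestine, cecum and colon were then at 98.1, 74.7 and 106 CPM.

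Cd40lg was at 89.5 CPM in stomach, 12.8 in the small intestine, 4.37 in the cecum and 8.19 in the colon. Stomach was highest and cecum lowest, and 13.6%, 2.58%, 0.720% and 1.86% of Cd3-positive cells had a UMI of it, against 2.30%, 0.485%, 0% and 0.521% of B cells (0 of 587 in the cecum, which allows a share of up to 0.511%). Izumo1r was at 46.0 CPM in stomach, 20.8 in the small intestine, 33.4 in the cecum and 20.6 in the colon. Small intestine and colon did not differ beyond their intervals.

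The stomach library differed most from colon. A ratio was called when it was at least 2-fold with a 95% interval that excluded 1, among genes with at least 20 UMIs over both libraries; colon was the common denominator, so the 3 ratios share its library. In stomach over colon 5 of 8 members with enough UMIs were higher, where 6.4% of all 11559 genes were, and 1 was lower, where 9.49% of all genes were. Cd40lg was 10.9-fold higher (95% interval 7.95 to 15.0), Il2ra 9.96-fold (6.76 to 14.6), Tnfrsf4 8.84-fold (6.25 to 12.4), Icos 7.66-fold (6.63 to 8.85), and Izumo1r 2.23-fold (1.54 to 3.15). Ikzf2 was 3.06-fold lower (2.68 to 3.52). Tnfrsf18, at a ratio of 1.75 (1.53 to 2.0), and Tnfrsf9, at 0.760 (0.591 to 0.964), were not called, and Foxp3 had too few UMIs. In the colon Cd40lg, Il2ra and Tnfrsf4 were not above the B cell level, so these ratios have a denominator near background. Stomach B cells held Il2ra at 14.3, Tnfrsf4 at 17.9 and Icos at 86.0 CPM. The colon Cd3-positive cells were lower, at 5.95, 7.93 and 46.4 CPM. For Cd40lg (7.17 and 8.19 CPM) and Izumo1r (3.59 and 20.6 CPM) the stomach B cells were the lower ones.

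The stomach difference within single statuses was not alike for all members. Il2ra was higher in stomach than in the colon in each status. It had 7 and 0 UMIs in Cd4 status. Its ratios were 4.55 (95% interval 1.55 to 11.2) in Trdc status, 8.44 (4.76 to 15.3) in none and 8.99 (2.20 to 27.6) in Cd8a status. Icos was higher in stomach than in the colon in Trdc status (340 and 32.3 CPM, ratio 10.5), none (360 and 75.4 CPM, ratio 4.78) and Cd8a status (240 and 27.7 CPM, ratio 8.63), but in Cd4 status it had 568 CPM in stomach and 474 in the colon, a ratio of 1.20 (95% interval 0.80 to 1.78). Cd40lg in Cd4 status had 238 and 217 CPM, a ratio of 1.10 (0.580 to 2.01), while in none it had 106 and 19.8 CPM, a ratio of 5.36 (3.54 to 8.09). From few UMIs it was also higher in Trdc status, with 4 and 2 UMIs and a ratio of 44.0 (6.31 to 487). In Cd8a status it had 3 and 8 UMIs, a ratio of 14.3 (2.45 to 59.7). Tnfrsf4 was higher in stomach in Cd4 status, at a ratio of 3.9 (2.03 to 7.8), and in none, at 6.5 (3.65 to 11.6). It had 0 and 9 UMIs in Trdc status and 0 and 40 in Cd8a status, too few in stomach to decide. Izumo1r was higher in stomach only in none, at 3.41 (1.86 to 6.1). Its intervals included 1 in Cd4 status (0.414 to 1.85), Trdc status (0.369 to 3.76) and Cd8a status (0.0823 to 2.55). Cells of Cd4 status were 10.2% of Cd3-positive cells in stomach and 1.59% in the colon. With cells carrying natural killer or group 2 innate lymphoid marker UMIs left out, the same counts of 5 members higher and 1 lower were found, and the log2 ratios were 3.6 for Cd40lg, 3.31 for Tnfrsf4, 3.04 for Icos, 2.83 for Il2ra, 1.45 for Izumo1r and -1.72 for Ikzf2. The Il2ra level in stomach was then 38.0 CPM, and the Tnfrsf9 level was 57.8 CPM. With no filter on other lineages Izumo1r was not called (log2 ratio 0.91).

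The small intestine and the cecum were close to colon for these genes. In small intestine over colon 1 of 9 members was higher, where 5.9% of 12267 genes were, and 0 were lower, where 4.62% were. The member was Foxp3, with 16 and 11 UMIs and a ratio of 2.54 (95% interval 1.11 to 6.05). In cecum over colon 1 of 9 was higher, where 2.04% of 12162 genes were, and 0 were lower, where 3.06% were. This was Icos, at a ratio of 2.03 (1.81 to 2.28), with Tnfrsf4 at 1.97 (1.47 to 2.63), Izumo1r at 1.62 (1.35 to 1.95) and Cd40lg at 0.534 (0.342 to 0.813) inside the 2-fold limit. Both calls lie near the limit, and both were lost when the natural killer and innate lymphoid marker cells were left out, with log2 ratios of 0.99 for Foxp3 and 0.95 for Icos.

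In Cd4 status 5 members were higher than in Cd8a status, and Ikzf2 was lower. The contrasts between statuses were tested on UMIs summed per library and status, 16 sums in all, with the library as a block, so that the 4 libraries act as the replicates of a contrast made within each. Against Cd8a status, 5 members rose in Cd4 status, where 4.09% of 9023 genes tested did, and 1 fell, where 3.82% did. They were Cd40lg, Tnfrsf4, Foxp3, Izumo1r and Icos, and the member that fell was Ikzf2.

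Cd40lg in Cd4 status had 238 CPM in stomach, 238 in the small intestine, 57.3 in the cecum and 217 in the colon, against 21.8, 1.45, 0.854 and 1.52 CPM in Cd8a status. Every Cd4 value lay above every Cd8a value. The log2 fold change was 6.18 (SE 0.54, n = 4 libraries, edgeR quasi-likelihood test with Benjamini-Hochberg adjusted p = 4.54e-07), and without the stomach library it was 6.77.

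Tnfrsf4 had 396, 161, 439 and 102 CPM in Cd4 status of stomach, small intestine, cecum and colon, against 0, 4.36, 1.71 and 7.6 CPM in Cd8a status. The groups did not overlap, and in the small intestine 17 of the 25 UMIs in Cd4 status were in 1 cell. The log2 fold change was 5.10 (SE 0.56, edgeR with Benjamini-Hochberg adjusted p = 4.55e-06). It was 4.28 without the cecum library and 6.58 without the colon library, and passed in both.

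Izumo1r had 158, 148, 688 and 176 CPM in Cd4 status, against 14.5, 14.5, 15.4 and 21.1 CPM in Cd8a status. The cecum was the highest, 72 UMIs in 47 cells. The log2 fold change was 3.89 (SE 0.42, edgeR with Benjamini-Hochberg adjusted p = 3.79e-06). It was 2.99 without the cecum library and 4.49 without the colon library, and passed in both.

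Icos had 568, 687, 1032 and 474 CPM in Cd4 status, against 240, 34.1, 56.8 and 27.7 CPM in Cd8a status. The groups did not overlap, and the stomach gave the smallest ratio, 2.37, against 20.1 in the small intestine, 18.2 in the cecum and 17.1 in the colon. The log2 fold change was 3.66 (SE 0.45, edgeR with Benjamini-Hochberg adjusted p = 1.79e-05), and it did not pass without the library block (adjusted p = 0.0589).

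Foxp3 in Cd4 status rested on 1 UMI in stomach, 7 in the small intestine, 2 in the cecum and 2 in the colon, or 13.2, 45, 19.1 and 13.5 CPM, against 0, 1, 2 and 3 UMIs or 0, 0.726, 0.854 and 0.570 CPM in Cd8a status. All 3 of the colon UMIs in Cd8a status were in 1 cell. The Cd4 values lay above the Cd8a values in each library. The log2 fold change was 4.66 (SE 0.81, edgeR with Benjamini-Hochberg adjusted p = 0.000756). Without the small intestine library the log2 fold change was 4.39 and missed the threshold (edgeR, adjusted p = 0.0569), and without cecum, without colon or without the natural killer and innate lymphoid marker cells Foxp3 had too few UMIs to be fitted.

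Ikzf2 had 52.8, 206, 449 and 135 CPM in Cd4 status, against 65.3, 930, 1001 and 880 CPM in Cd8a status. The Cd4 value was the lower one within every library, but in stomach the ratio of 0.808 had an interval that included 1, and the stomach Cd8a value lay among the Cd4 values. The log2 fold change was -1.85 (SE 0.32, edgeR with Benjamini-Hochberg adjusted p = 0.000787), and it did not pass without the library block (adjusted p = 0.152).

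The other 3 members did not pass. Il2ra had 7, 4, 2 and 0 UMIs in Cd4 status, against 4, 9, 7 and 17 in the larger Cd8a status, with a log2 fold change of 1.73 (edgeR, Benjamini-Hochberg adjusted p = 0.102). Tnfrsf9 had 52.8, 19.3, 66.9 and 40.6 CPM in Cd4 status, against 7.26, 88.6, 89.2 and 126 CPM in Cd8a status, a log2 fold change of -1.28 (edgeR, adjusted p = 0.0920), which passed without the stomach library at -1.39 (adjusted p = 0.0197). Tnfrsf18 had 343, 251, 162 and 176 CPM in Cd4 status, against 174, 109, 171 and 167 CPM in Cd8a status, a log2 fold change of 0.47 (edgeR, adjusted p = 0.166). The neighbours Tnfrsf4 and Tnfrsf18 thus had different patterns: their log2 fold changes were 5.10 and 0.47, a difference that was not itself tested.

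**Figure D2:**
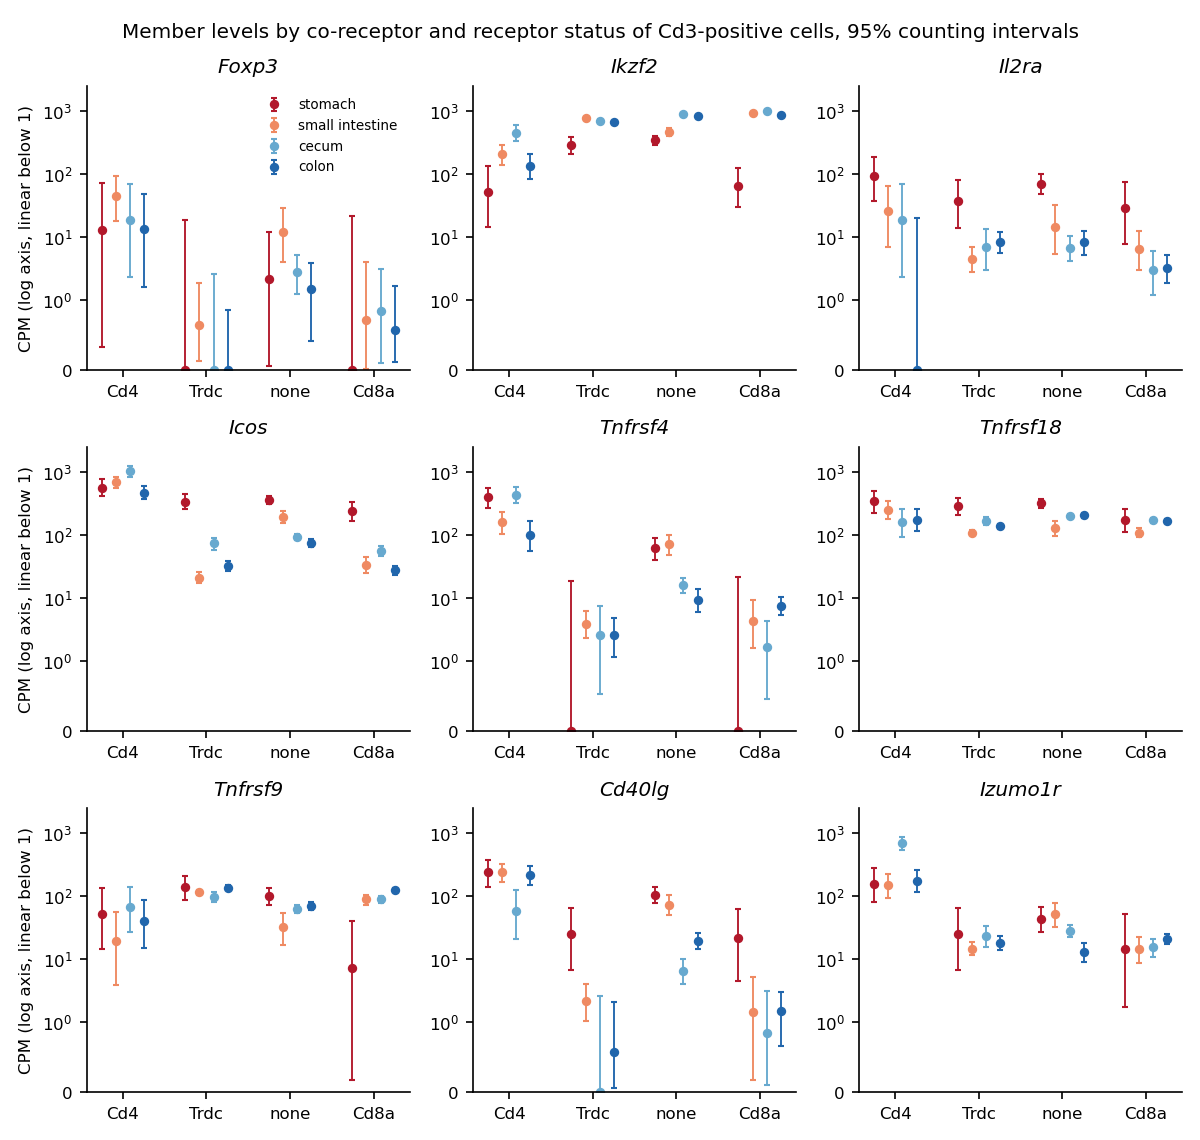
Level of each member by status, in CPM on a log axis that is linear below 1, with exact Poisson 95% intervals; each point is 1 library, coloured by tissue. Icos, Tnfrsf4, Cd40lg and Izumo1r are highest in Cd4 status in each library, while Ikzf2 in the 3 intestinal libraries is lowest there.

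No member passed between Trdc-status and Cd8a-status cells. In Trdc over Cd8a status 0 of 9 members rose, where 0.222% of genes did, and 0 fell, where 0.155% did (edgeR; at an unadjusted p under 0.05 the count of members was 0, where 5.88% of genes passed, and by DESeq2 it was 0). Tnfrsf9 had 138, 115, 97.4 and 136 CPM in Trdc status, against 7.26, 88.6, 89.2 and 126 CPM in Cd8a status, with a log2 fold change of 0.30 (SE 0.16). Ikzf2 had 290, 767, 697 and 668 CPM in Trdc status, against 65.3, 930, 1001 and 880 in Cd8a status, higher only in the stomach, and its log2 fold change was -0.21 (SE 0.23). Standard errors were between 0.13 for Tnfrsf18 and 0.99 for Foxp3.

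In none over Cd8a status 1 member rose, where 0.598% of genes did, and 0 fell, where 0.554% did. Cd40lg had 106, 73.7, 6.5 and 19.8 CPM in none, against 21.8, 1.45, 0.854 and 1.52 CPM in Cd8a status, with a log2 fold change of 3.96 (SE 0.52, edgeR with Benjamini-Hochberg adjusted p = 0.000246). Without the library block the adjusted p was 0.852. Tnfrsf4 had 61.9, 71.3, 16.1 and 9.52 CPM in none, against 0, 4.36, 1.71 and 7.6 in Cd8a status, and did not pass (log2 fold change 1.92, edgeR, adjusted p = 0.0960). Of the 9 members 7 had an unadjusted p under 0.05 in this contrast, where 9.97% of genes did, and DESeq2 called 1. Without the stomach library Icos passed as higher (log2 fold change 1.34, edgeR, adjusted p = 0.00767) and Tnfrsf9 as lower (-0.70, adjusted p = 0.00658).

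**Figure D3:**
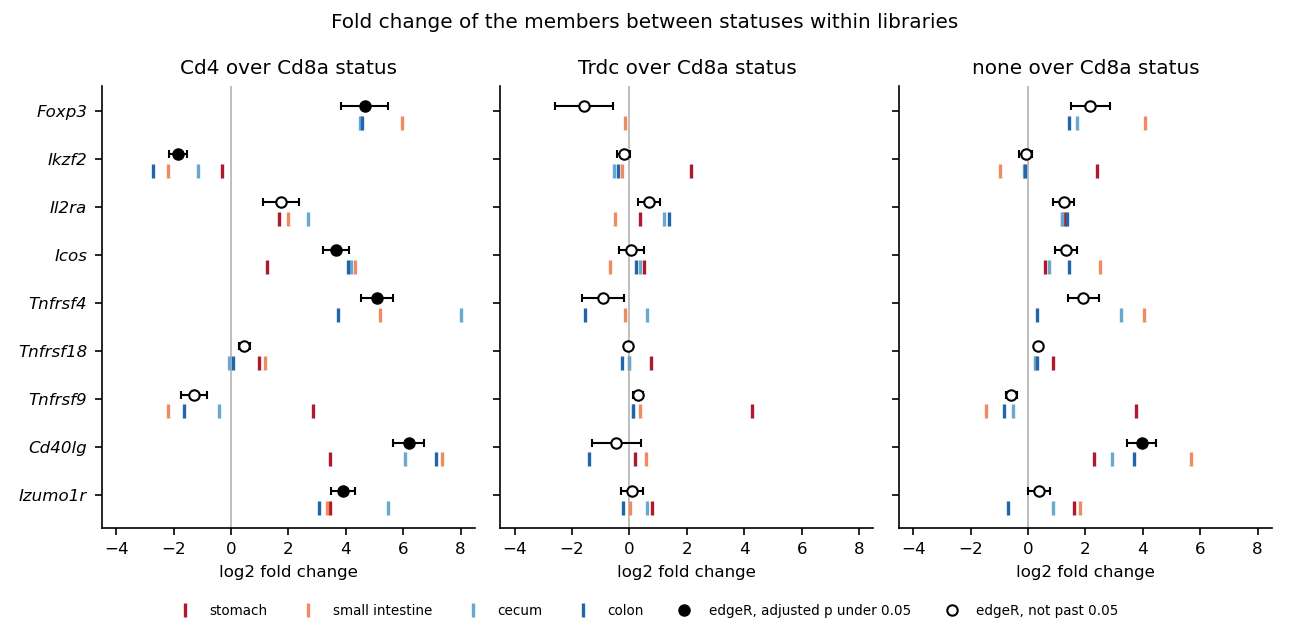
Log2 fold change of each member over Cd8a status for Cd4, Trdc and none status: circles with SE are the edgeR estimates over 4 libraries (filled where the adjusted p is under 0.05), and coloured ticks are the ratios within single libraries, left out where either sum is 0. Filled circles are 6 in Cd4, 0 in Trdc and 1 in none.

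Within the Cd8a-status cells, those with Cd8b1, the beta chain of the conventional co-receptor, were set beside those without it. Ikzf2 was lower in cells with Cd8b1 in the small intestine, at 245 CPM against 1060 CPM without it, a ratio of 0.232 (95% counting interval 0.173 to 0.304), and in the colon, at 597 and 905 CPM, a ratio of 0.660 (0.579 to 0.749). In cecum it had 917 CPM with and 1011 CPM without Cd8b1, a ratio of 0.908 (0.784 to 1.05). In stomach 45 of the 50 Cd8a-status cells carried Cd8b1, and they held 1 Ikzf2 UMI, against 8 in the other 5 cells. Tnfrsf9 was lower with Cd8b1 in all 3 intestinal libraries, at ratios of 0.320, 0.320 and 0.371 in the small intestine, cecum and colon. Icos was higher with Cd8b1 in the small intestine, at a ratio of 3.57 (1.88 to 6.62), and colon, at 3.44 (2.27 to 5.08), and not beyond the interval in the cecum, at 1.09 (0.576 to 1.90). Among Trdc-status cells, those with Cd8a had more Tnfrsf9 than those without it in the small intestine, 121 and 68.9 CPM, a ratio of 1.75 (1.25 to 2.52), and in the colon, 162 and 100.04 CPM, a ratio of 1.62 (1.33 to 1.98). In cecum they had 121 and 85.6 CPM, a ratio of 1.42 with an interval that included 1 (0.952 to 2.10).

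Cd4 status held a larger part of the UMIs of most members than of the cells, and a smaller part for Ikzf2 and Tnfrsf9. Cells of Cd4 status were 2.06% of Cd3-positive cells and held 34.2% of the 339 Tnfrsf4 UMIs, 32.7% of the 284 Cd40lg UMIs, 28.6% of the 42 Foxp3 UMIs, 20.7% of the 644 Izumo1r UMIs and 17.9% of the 1832 Icos UMIs. They also held 6.53% of the 199 Il2ra UMIs, from 13 UMIs, and 2.57% of the 4210 Tnfrsf18 UMIs, close to their part of the cells. Their part was 0.497% of the 20705 Ikzf2 UMIs and 0.769% of the 2601 Tnfrsf9 UMIs. Cells with none of the 3 status genes held 53.2% of the Cd40lg UMIs. Izumo1r was more evenly divided, with 25.2% of its UMIs in Trdc status, 25.8% in none and 26.2% in Cd8a status.

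Single cells with a Foxp3 UMI were rare and carried several other members. There were 33 of them, 2 in stomach, 11 in the small intestine, 12 in the cecum and 8 in the colon, and 27 had exactly 1 Foxp3 UMI. By status 9 were Cd4, 3 Trdc, 16 none, 4 Cd8a and 1 had a mixed status. All 33 had a UMI of at least 1 other member and 26 had at least 3. The matching counts for cells without Foxp3 were not made. Of all Cd3-positive cells, 74.0% had an Ikzf2 UMI and 32.7% a Tnfrsf18 UMI. Tnfrsf4 was found in 21 of the 33, or 63.6% (95% binomial interval 45.1 to 79.6), against 1.67% of cells without Foxp3. Izumo1r was found in 60.6% against 4.41%, Icos in 54.5% against 10.1%, Il2ra in 30.3% against 1.33%, Tnfrsf18 in 72.7% against 32.5%, and Tnfrsf9 in 36.4% against 13.8%. Ikzf2 was at 69.7% against 74.0%, and Cd40lg at 9.09% (interval 1.92 to 24.3) against 1.97%. Of the 10 Foxp3 cells with Il2ra 6 were in the cecum, and without that library the shares were 19.0% for Il2ra and 14.3% for Cd40lg, which was at 4.55% without the small intestine. After thinning to 1000 UMIs per cell 19 cells kept a Foxp3 UMI, and Tnfrsf4 was in 47.4% of them against 0.880% of the rest. The thinned shares were 52.6% against 5.58% for Icos, 57.9% against 14.9% for Tnfrsf18 and 21.1% against 1.88% for Izumo1r. Il2ra was in 3 of the 19, or 15.8% against 0.649%. Tnfrsf9 was in 10.5% (interval 1.3 to 33.1) against 6.24%, so its share was no longer separated from the rest. Cd40lg was not separated either, and Ikzf2 was again not higher. Cells are not replicates, so these shares carry no test, and no doublet filter was applied.

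**Figure D4:**
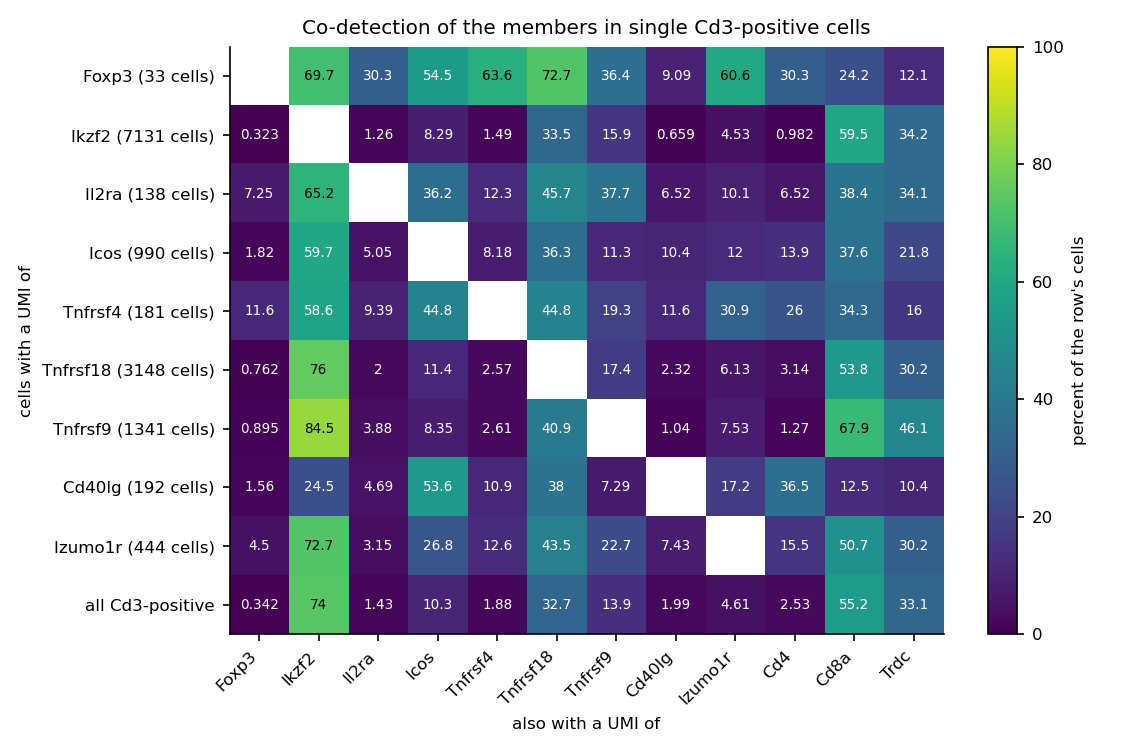
Share of Cd3-positive cells with a UMI of the row gene that also had a UMI of the column gene, in percent, pooled over the 4 libraries; the bottom row gives all 9638 Cd3-positive cells. The Foxp3 row stands above the bottom row for Tnfrsf4 (63.6 and 1.88), Izumo1r (60.6 and 4.61) and Il2ra (30.3 and 1.43), and the Cd40lg row stands below it for Ikzf2 (24.5 and 74.0).

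The Foxp3 cells of Cd4 or none status were set beside Cd4-status cells without Foxp3, as a description with no test. The 25 Foxp3 cells of Cd4 or none status had 1150 CPM of Ikzf2, against 164 CPM in the 190 Cd4-status cells without a Foxp3 UMI. Tnfrsf4 was 1233 CPM against 171, Il2ra 267 against 23.8, Tnfrsf9 267 against 23.8, Tnfrsf18 700 against 195 and Izumo1r 533 against 262 CPM. Icos was close, at 766 CPM against 686, and Cd40lg was lower, at 33.3 CPM (95% interval 4.04 to 120) against 197 (158 to 242). The remaining 8 Foxp3 cells, of Cd8a, Trdc or mixed status, held no Il2ra UMI and 6 Tnfrsf4 UMIs.

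Of the 25 Foxp3 cells 16 had none status, and none status held more Ikzf2 than Cd4 status in every library, at 345, 474, 911 and 828 CPM against 52.8, 206, 449 and 135 CPM. The same cells were therefore also compared within 1 status, a comparison added after the data were seen. Within Cd4 status, 9 cells with and 190 without a Foxp3 UMI had 1253 and 164 CPM of Ikzf2, and within none, 16 cells with and 2996 without had 1092 and 813 CPM. For Tnfrsf4 the levels were 1718 and 171 CPM within Cd4 status, and 962 and 14.5 CPM within none. For Il2ra they were 92.9 CPM, from 2 UMIs, and 23.8 CPM within Cd4 status, and 364 and 10.2 CPM within none. For Tnfrsf9 they were 418 and 23.8 CPM within Cd4 status, and 182 and 65.6 CPM within none. Icos was at 511 and 686 CPM within Cd4 status, and at 910 and 106 CPM within none. The Ikzf2 levels were thus closer within none than within Cd4 status, and that difference was not tested.

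**Figure D5:**
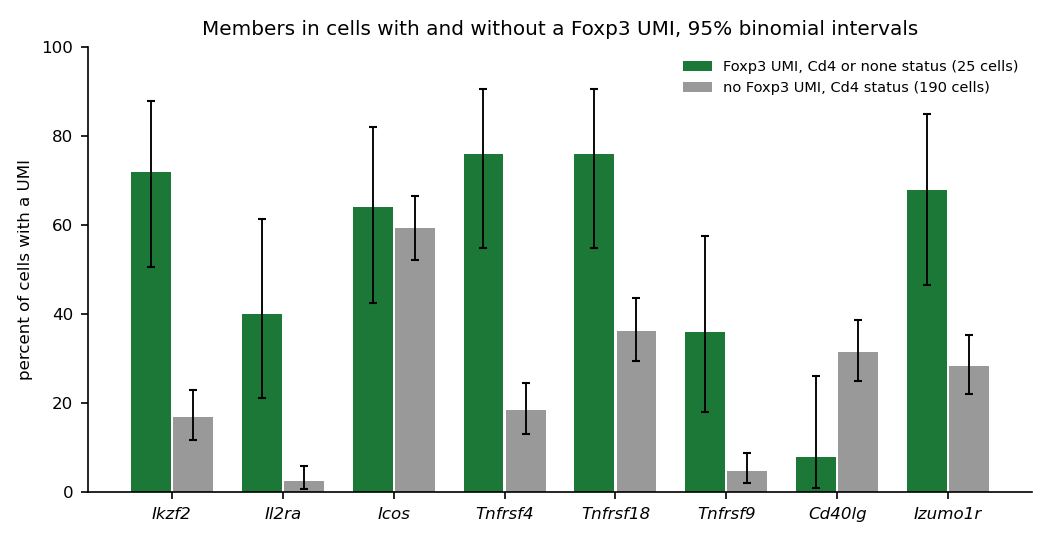
Share of cells with a UMI of each other member, in percent with exact binomial 95% intervals, in 25 Cd3-positive cells with a Foxp3 UMI and Cd4 or none status (green) and in 190 Cd4-status cells without one (grey). Ikzf2 is found in 72% and 16.8%, Tnfrsf4 in 76% and 18.4%, and Cd40lg in 8% and 31.6%. Of the green cells 16 had none status. Within Cd4 status alone, Cd40lg was in 22.2% of 9 cells with and 31.6% of 190 cells without a Foxp3 UMI.

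Cells with a Cd40lg UMI were described in the same way, with no test. Of the 192 Cd3-positive cells with a Cd40lg UMI, 53.6% had an Icos UMI and 36.5% a Cd4 UMI, against 10.3% and 2.53% of all Cd3-positive cells. An Ikzf2 UMI was found in 24.5% of them and in 74.0% of all Cd3-positive cells. Izumo1r was found in 17.2% of them against 4.35% of cells without Cd40lg, Tnfrsf4 in 10.9% against 1.69%, and Foxp3 in 1.56% against 0.318%.

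Genes of the same pathways were read in the Cd4 over Cd8a contrast from lists of helper, regulatory T, IL-2 receptor, TNF receptor and ligand genes. Of all 9023 genes tested 4.09% rose and 3.82% fell, and the lists were chosen with earlier results of these data known. Of 13 helper genes tested (17 listed) 10 rose and 0 fell, with a list median log2 fold change of 2.44, against -0.07 over all genes. Among them were Cxcr5, the follicle-homing receptor, at 3.57 (SE 0.64), Cd5, a brake on receptor signalling, at 3.45 (SE 0.35), and Il7r, the survival receptor of resting T cells, at 3.35 (SE 0.47). Of 13 regulatory T genes tested (21 listed) 6 rose and 0 fell, with a median of 1.89. These included Il10, a suppressive cytokine, at 5.59 (SE 1.15), Maf, a transcription factor of cytokine genes, at 5.41 (SE 0.69), Areg, a tissue-repair growth factor, at 5.26 (SE 0.78), and Ctla4, an inhibitory receptor, at 2.82 (SE 0.27). Areg and Il10 were uneven: Areg had 0, 8, 27 and 1 UMIs in Cd4 status of stomach, small intestine, cecum and colon, and Il10 had 1, 4, 17 and 1. Maf, Il10, Areg and several others of that list are also used by helper cells that are not regulatory. In cecum 12.8% of Cd4-status cells carried at least 2 UMIs of group 2 innate lymphoid markers, a list that holds Areg, against 0.0889% of Cd8a-status cells, and the part of those cells in the result was not tested.

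Around the IL-2 receptor, 2 genes rose and 2 fell of 11 tested, with a median of 0.16, where 4.09% of all genes rose and 3.82% fell. Cish, a feedback inhibitor, was at 0.79 (SE 0.24) and Stat5b, a signal transducer, at 0.79 (SE 0.17), while Bcl2, a survival factor, was at -1.13 (SE 0.18) and Il2rb, the beta chain that pairs with Il2ra, at -0.68 (SE 0.17). Of 13 other TNF receptor and TRAF genes 2 rose, Tnfrsf25 (death receptor of the same family) at 4.09 (SE 1.24) and the adaptor Traf1 at 0.78 (SE 0.19), with a median of 0.36. Of the 6 ligand genes 2 had enough UMIs to be tested and neither passed. In Trdc over Cd8a status the only list gene called was Prdm1, higher at 1.5 (SE 0.31), and in none over Cd8a status Traf1 and S1pr1 were higher and Entpd1 lower.

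Likeness of pattern was measured by Pearson's r of log2(CPM + 10) over the 16 sums of tissue and status, across 11971 genes, as a description of points that share libraries and statuses. Tnfrsf4 was most like Hif1a (r 0.94) and Izumo1r (0.93), and Izumo1r most like Hif1a (0.98), Tmem65 (0.96) and Tnfsf11 (0.95). Cd40lg was most like Gata3 (0.93), Il7r (0.92) and Hnrnpll (0.92), and Icos most like Enc1 (0.95), Cd82 (0.95) and Gm19765 (0.94). Ikzf2 was most like Ptpn6 (0.96), Gcdh (0.95) and Fasn (0.95), and its r with the other members was negative except with Tnfrsf9 (0.64). Il2ra was most like Nfkbie (0.94), Tnfrsf18 most like Muc1 (0.89) and Tnfrsf9 most like Rnf219 (0.92).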

How the data were processed

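Each library was deposited as a matrix of whole-number UMI counts, by gene symbol and barcode, which were used as raw counts. Per the submitters' processing notes, Cell Ranger and Seurat 3.0.0 were used with the build GRCm38 (mm10); no further step is given in the sources used here. A minimum of 200 listed genes per barcode left out 5 of 14378. Cd3-positive and B cells (at least 3 UMIs of B cell markers) were set by marker UMIs; no doublet filter was applied. Counts were summed per library and class and given as CPM with exact Poisson 95% intervals; shares carry exact Clopper-Pearson intervals and ratios exact conditional binomial ones. A count of 0 was given the limit of 3 counts.

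Status contrasts used edgeR 4.0.16 (R 4.3.3, TMM, filterByExpr, glmQLFit and glmQLFTest, library as block, at least 20 cells per sum, Benjamini-Hochberg over 9023 genes, threshold 0.05). They were run on simulated data that held no library effect, which does not check the block. The p-values rest on how far the status differences varied between libraries of different tissues, with level differences between libraries taken up by the block. Alternatives included DESeq2 1.42.0. Named genes were the 9 members, up to 3 genes most like each member with at least 50 UMIs, and up to 4 called genes of largest fold change per list; a gene that the rule names is not reported here. The members and lists were chosen with earlier results of these data known.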

Additional observations from a re-analysis of the deposited data

Results flagged for a closer look

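Between libraries, several members moved in opposite directions under the same status contrast, as log2 ratios within single libraries; these differences between libraries were not tested. Ikzf2 in Trdc over Cd8a status was 2.15 in stomach, -0.28 in the small intestine, -0.52 in the cecum and -0.40 in the colon. Ikzf2 in none over Cd8a status was 2.40 in stomach, -0.97 in the small intestine, -0.14 in the cecum and -0.087 in the colon. Tnfrsf9 in none over Cd8a status was 3.78 in stomach, -1.47 in the small intestine, -0.51 in the cecum and -0.84 in the colon. Izumo1r in none over Cd8a status was 1.83 in the small intestine, 0.87 in the cecum and -0.70 in the colon. In stomach the Cd8a-status sum held 9 Ikzf2 UMIs and 1 Tnfrsf9 UMI in 50 cells, of which 45 carried Cd8b1, and at least 2 natural killer marker UMIs were found in 25% of Trdc-status, 28.6% of none-status and 10% of Cd8a-status cells.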

How the results depend on the processing

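Of the members called in Cd4 over Cd8a status, Cd40lg, Tnfrsf4 and Izumo1r passed in each alternative run; Foxp3 did not pass without small intestine and could not be fitted in 3 of the 16, and Ikzf2 and Icos without the library as replicate block. Without plasma-marker B cells the members above background were 5 in stomach and 3 in the small intestine, and without natural killer and innate lymphoid marker cells the members called over colon were 0 for small intestine and 0 for cecum. Genes called in Cd4 over Cd8a status (369 higher, 345 lower) were 206 and 193 with status from at least 2 UMIs and 85 and 74 without the replicate block. The member count lower was 0 without the block and 2 with no low-count filter. In Trdc over Cd8a status (20 higher, 14 lower) the counts were 43 and 26 with status from 2 UMIs, 62 and 29 with no filter, and 5 and 2 without the block; DESeq2 called 9 lower. In none over Cd8a status (54 higher, 50 lower) they were 185 and 102 with status from 2 UMIs, 122 and 76 with no filter, 11 and 5 by DESeq2 and 0 and 1 without the block, and 14 were lower with no other-lineage filter. There, members higher were 3 with status from 2 UMIs, 3 with no filter and 0 without the block, and 1 member was lower with status from 2 UMIs and 1 without natural killer and innate lymphoid marker cells.

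Leaving out 1 library gave 150 to 483 genes higher and 133 to 382 lower in Cd4 over Cd8a status, 5 to 53 and 6 to 24 in Trdc over Cd8a, and 2 to 157 and 3 to 93 in none over Cd8a. Of Cd4 over Cd8a, 150 higher and 133 lower were left without colon, 197 and 166 without cecum, and 169 lower without small intestine. In Trdc over Cd8a, 46 and 24 were called without stomach, 53 higher without small intestine, 8 and 8 without cecum and 5 and 6 without colon. In none over Cd8a, 157 and 93 were called without stomach, 8 and 4 without cecum and 2 and 3 without colon. Members lower in Cd4 over Cd8a were 1 to 2, and in none over Cd8a members higher were 1 to 2 and lower 0 to 1, the higher counts without stomach. Log2 fold changes that changed sign were all of values that pass no test: Il2ra in Cd4 over Cd8a, -5.30 with status from 2 UMIs; in Trdc over Cd8a, Tnfrsf18 at 0.019 with no other-lineage filter, 0.13 without the block and -0.10 to 0.095 leaving out 1 library, Icos at -0.15 without natural killer and innate lymphoid marker cells, -0.063 to 0.43 leaving out 1 library, Izumo1r at -0.10 with status from 2 UMIs and -0.18 to 0.44 leaving out 1 library, Ikzf2 at 0.0070 by DESeq2, Cd40lg at 0.059 without the block and Tnfrsf4 at -1.27 to 0.28 leaving out 1 library; and Ikzf2 in none over Cd8a, 0.10 by DESeq2 and -0.29 to 0.22 leaving out 1 library. The cause of these changes was not tested. Foxp3 rests on 42 UMIs and Il2ra on 199 UMIs in all. In an alternative chosen after seeing the data, the cell with most UMIs of a member was left out of each library; no tissue ratio changed direction except the uncalled one of Izumo1r in small intestine over colon, which lay close to no difference under both.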

Other observations

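Some members were also found in cells without Cd3. In the stomach library 44 cells with group 2 innate lymphoid marker UMIs and no Cd3 UMI had 946 CPM of Icos, 753 of Tnfrsf18 and 422 of Il2ra, and no UMI of Tnfrsf4, Cd40lg or Izumo1r. The 239 stomach cells with natural killer markers and no Cd3 UMI had 349 CPM of Tnfrsf18, 268 of Ikzf2, 144 of Tnfrsf9 and 60.6 of Il2ra. Mast cells, by their protease markers, held Ikzf2 at 301 CPM in stomach (2033 cells), 394 in the small intestine (75 cells) and 310 in the cecum (28 cells). The B cells of each library were lower, at 21.5, 7.63 and 33.5 CPM. In stomach the mast cell interval (286 to 317) overlapped that of the Cd3-positive cells, at 260 CPM (226 to 297). In the small intestine and cecum the Cd3-positive cells were higher than the mast cells, at 766 and 899 CPM.

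Ligands of the members were found in Cd3-positive cells and in other cells. Icosl, the ligand of Icos, was at 23.0 CPM in Cd3-positive cells of the stomach, 18.4 in the small intestine, 14.6 in the cecum and 14.7 in the colon, against 86.0, 8.48, 98.7 and 147 CPM in B cells. Il2, the ligand of the receptor that holds Il2ra, was at 38.7, 13.8, 9.77 and 11.6 CPM in Cd3-positive cells, against 7.17, 0.848, 3.62 and 8.88 CPM in B cells. Cd40, the partner of Cd40lg, was at 57.4, 10.2, 82.4 and 79.9 CPM in B cells of the same tissues. Tnfsf9, the ligand of Tnfrsf9, was at 111 CPM in 361 cells with macrophage markers of the stomach and 53.9 CPM in 66 such cells of the colon.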
